A study of Rattus norvegicus with 9 samples.

Results

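rno-miR-128-3p and rno-miR-129-5p, written miR-128-3p and miR-129-5p from here on, are 2 of the 201 mature rat miRNAs in the deposited read count table, and both are known best from the brain. They were taken by name from that table, together with the sequence tags that carry their names in the files of single libraries. They were chosen by their table read counts in these same libraries, so levels and group differences are described without a test. Small RNA was sequenced from exosomes, the small vesicles that cells release, of peritoneal macrophages taken by lavage from untreated rats and kept in medium with 10% fetal bovine serum. The 9 libraries form 3 groups of 3. In Control, the macrophages were kept with 0.1% DMSO for 24 h. In LPS, they were exposed for 6 h to lipopolysaccharide, the bacterial endotoxin, at 100 ng/ml. In LPS+AS-IV, the same exposure to LPS followed 24 h with 150 µM astragaloside IV, a plant saponin. Both agents were dissolved in DMSO, but a final DMSO concentration is stated for Control alone. The labels do not say whether replicates came from separate animals or cultures, nor whether the serum was freed of its own vesicles.

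A miRNA is cut from a hairpin precursor and guides the silencing complex to messenger RNAs that pair with its seed, bases 2 to 8 from its 5′ end. miR-128 is abundant in neurons, where it restrains genes of neuronal excitability, and it is also made in blood cells. miR-129 is a neuronal miRNA too, known for control of excitability, synapses and cell growth.

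The mature sequences are shown because every table read of both miRNAs came from exactly these 21 nt. They are RefSeq's, from its table for build GRCr8, and the capitals mark the seed.
miR-128-3p: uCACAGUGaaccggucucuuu
miR-129-5p: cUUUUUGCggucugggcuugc
The seeds differ. Among the RefSeq rat mature miRNAs, 1 name had the seed CACAGUG and 1 had UUUUUGC. The sequences of the 2 miRNAs were 13 edits apart, counting bases changed, added or removed.

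Each mature sequence comes from a pair of genes. Mir128-1 lies on the plus strand at chr13:42251884-42251965, within the protein-coding gene R3hdm1. Mir128-2 lies on the minus strand at chr8:120963795-120963878, within the protein-coding gene Arpp21 and a long non-coding RNA gene. Mir129-1 lies on the plus strand at chr4:58589711-58589782, within a long non-coding RNA gene. Mir129-2 lies on the minus strand at chr3:100657390-100657486, and no other listed gene spans it. All positions are those of GRCr8, whereas the submitters' processing notes name Rnor_6.0. The miR-128 hairpins are shown, with miR-128-3p in capitals, because the bases on either side of it bear on the longer tags described further on.
Mir128-1: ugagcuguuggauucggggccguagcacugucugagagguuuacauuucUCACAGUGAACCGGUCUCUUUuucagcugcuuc
Mir128-2: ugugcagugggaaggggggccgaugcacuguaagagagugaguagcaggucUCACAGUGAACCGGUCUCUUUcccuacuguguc
No read in the table or under a tag label was given to the opposite arm of any of these 4 hairpins.

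Reads assigned to any small RNA ranged from 3484099 to 9527483 per library, but reads in the miRNA table only from 15426 in LPS+AS-IV 1 to 75528 in Control 3, and 546599 in LPS+AS-IV 3. LPS+AS-IV 3 stood apart in this depth, and group means and folds of the members that rest on it are given with and without it. Correlations across libraries include it throughout. A count of 0 allows up to 3 reads. That floor was 5.99 CPM (reads scaled to equal library size by TMM) in LPS+AS-IV 3, between 40.3 and 108 CPM in 7 libraries and 216 CPM in LPS+AS-IV 1. Intervals and floors cover counting error only, since reads may be PCR copies, which are not independent molecules. Of the myeloid markers listed, miR-146a-5p and miR-21-5p had table reads in 9 of 9 libraries, miR-223-3p and miR-155-5p in 6, miR-142-5p in 4 and miR-142-3p in none. With sequence tags labelled hairpin added, which are described further on, miR-223-3p and miR-155-5p were present in 9 of 9. miR-142-5p was then present in 5 and miR-142-3p in 2. The lymphocyte miR-150-5p and miR-181a-5p, the erythroid miR-451-5p, the endothelial miR-126a-3p and the liver miR-122-5p were each read in 9 of 9. The remaining members of these lists were read in fewer libraries. The erythroid miR-486 was read in 7 and miR-144-3p in 2, the endothelial miR-126a-5p in 1 and the liver miR-192-5p in 4.

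miR-128-3p had table reads in each Control library, in no LPS library and in 1 LPS+AS-IV library. Control 1, 2 and 3 held 34, 39 and 64 reads, or 734, 1165 and 860.1 CPM. LPS 1, 2 and 3 held 0 reads each, below floors of 108, 51.4 and 48.1 CPM. LPS+AS-IV 1 and 2 held 0 reads, below floors of 216 and 45.7 CPM, and LPS+AS-IV 3 held 1102 reads, or 2201 CPM. So every Control library lay above every LPS floor, while the LPS+AS-IV libraries lay on both sides of Control.

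The order of the group means was Control, LPS+AS-IV and LPS. Control had a mean of 919.7 ± 221 CPM (SD, n = 3), and that of LPS+AS-IV was 734 ± 1271 CPM (SD, n = 3), a gap smaller than either spread. In LPS all 3 libraries were at 0. Against the mean of the LPS floors, Control was at least 13.3-fold higher, and this bound was between 11.5-fold and 18.5-fold with any 1 library of these groups left out. LPS+AS-IV was at least 10.6-fold higher than the same floors through LPS+AS-IV 3 alone. Without that library its table reads were 0 and no fold was left. Whether the table zeros reflect exosome content was not tested. If levels did differ, whether fewer vesicles carried the miRNA or each carried fewer copies cannot be told apart in pooled exosome RNA.

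**Figure D1:**
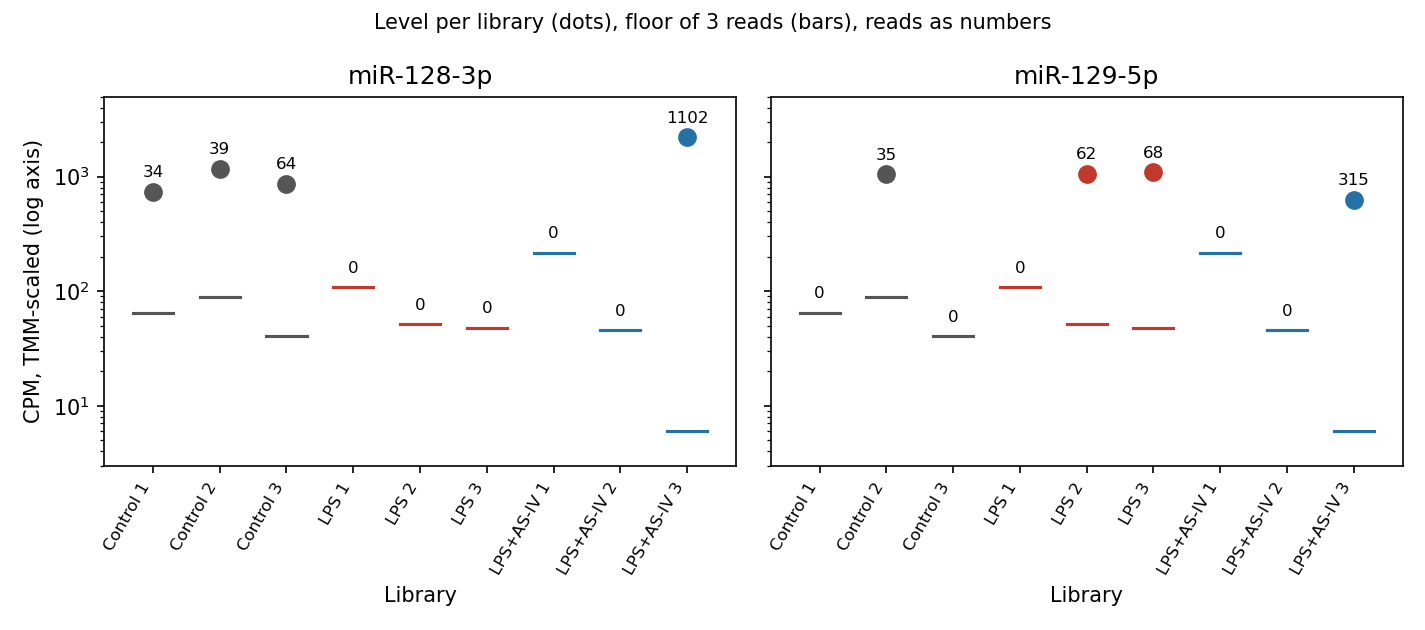
Level of miR-128-3p (left) and miR-129-5p (right) in each library, as TMM-scaled CPM on a log axis. Dots are libraries with table reads, horizontal bars the floor of 3 reads, numbers the table reads and colours the groups. miR-128-3p sits at 734 to 1165 CPM in Control and at 2201 CPM in LPS+AS-IV 3, and each miRNA is at 0 in 5 libraries.

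Within the 94 miRNAs with enough reads to be tested, 11.7% were lower in every LPS library than in every Control library, as miR-128-3p was, and 7.45% were higher in every one, so such a separation was not rare. Neither member separated LPS+AS-IV from LPS, where 4.26% of the 94 were higher and 3.19% lower without overlap. Neither separated LPS+AS-IV from Control, where these shares were 5.32% higher and 5.32% lower. In the whole table, 3 miRNAs had reads in each Control library and none in any LPS library, miR-181c-5p and miR-125a-5p beside miR-128-3p, names chosen after their values were seen.

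Of all table reads, miR-128-3p made up 0.0806% in Control 1 (95% Wilson interval 0.0577 to 0.113), 0.126% in Control 2 (0.0925 to 0.173) and 0.0847% in Control 3 (0.0664 to 0.108). The 3 intervals overlap. In LPS+AS-IV 3 it held 0.202% (0.19 to 0.214), above all of them. The 0 counts allowed shares of up to 0.0118% in LPS 1, 0.00457% in LPS 2 and 0.00487% in LPS 3. For LPS+AS-IV 1 and 2 the limits were 0.0194% and 0.00436%. Each of these limits was under the lower interval bound of every Control library. miR-128-3p was a middling miRNA of its libraries, 76th of 113 detected in Control 1, 54th of 101 in Control 2, 64th of 120 in Control 3 and 46th of 101 in LPS+AS-IV 3.

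miR-129-5p was read in 1 Control library, 2 LPS libraries and 1 LPS+AS-IV library. Control 2 held 35 reads (1045 CPM), and Control 1 and 3 held 0, below 64.8 and 40.3 CPM. LPS 2 and 3 held 62 and 68 reads (1061 and 1090.3 CPM), and LPS 1 held 0, below 108 CPM. LPS+AS-IV 3 held 315 reads (629 CPM), and LPS+AS-IV 1 and 2 held 0, below 216 and 45.7 CPM. Each group thus had libraries at 0 and libraries well above the floor, and the groups overlapped.

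The mean of miR-129-5p was highest in LPS, at 717 ± 621 CPM, then 348 ± 604 CPM in Control, and lowest with AS-IV before LPS, at 209.8 ± 363 CPM (SD, n = 3 per group). The neighbours in this order differed by less than their spread. Without Control 2 the Control mean was 0, and without LPS+AS-IV 3 the LPS+AS-IV mean was 0. Without LPS 1 the LPS mean was 1076 CPM. Where it was read, its share of the table was alike, 0.113% in Control 2 (95% Wilson interval 0.0816 to 0.158), 0.0943% in LPS 2 (0.0736 to 0.121) and 0.11% in LPS 3 (0.0871 to 0.14). Its share was lower in LPS+AS-IV 3, 0.0576% (0.0516 to 0.0644).

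The members were read together in 2 libraries, Control 2 and LPS+AS-IV 3. miR-128-3p had 39 reads beside 35 of miR-129-5p in the former, and 1102 beside 315 in the latter. Across the 9 libraries their log2(CPM + 1) values had a Pearson r of 0.12, a description over libraries that share their depth and their many zeros.

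Tags outside the table changed where miR-128-3p was seen. The files of single libraries label a tag mature or hairpin, and the table counted the mature label. All tags of any label within 2 edits of the mature sequence were gathered. For miR-128-3p these were 14 distinct tags, 1 labelled mature, 10 labelled hairpin and 3 labelled with an Rfam family, with 1403 reads. The 5 forms with at least 5 reads are shown as sequenced, with T for U and bases 2 to 8 of each tag in capitals, because they differ at their ends.
Exact mature: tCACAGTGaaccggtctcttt
1 base more at the 5′ end: tTCACAGTgaaccggtctcttt
1 base more at the 3′ end: tCACAGTGaaccggtctctttt
1 base less at the 3′ end: tCACAGTGaaccggtctctt
2 bases less at the 3′ end: tCACAGTGaaccggtctct

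Every form but the exact one was absent from the table. The 5′-extended tag had 74 reads in Control 3, more than the 64 of the exact tag there, and was found in no other library. The 3′-extended tag had 19 reads in Control 2 and 28 in LPS+AS-IV 2. The tag shorter by 1 base had 7 reads in LPS 1 and 1 in LPS+AS-IV 3. The tag shorter by 2 bases had 25 reads in LPS+AS-IV 2 alone, under an Rfam label. LPS 1 and LPS+AS-IV 2, both at 0 in the table, therefore held 7 and 54 reads within 2 edits of miR-128-3p.

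The tags were compared with the hairpins printed above and by their seeds. The exact tag and both shorter tags are contained in both hairpins. The 3′-extended tag is contained in Mir128-1 and not in Mir128-2. The 5′-extended tag is contained in neither hairpin. Its bases 2 to 8, TCACAGT, are the seed of miR-27a-3p and miR-27b-3p, which are printed for comparison with the seed in capitals.
miR-27a-3p: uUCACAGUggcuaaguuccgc
miR-27b-3p: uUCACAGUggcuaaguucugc
Beyond the shared start the sequences diverge, and the tag matches miR-128-3p to its last base. The other end variants shown kept the seed of miR-128-3p.

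**Figure D2:**
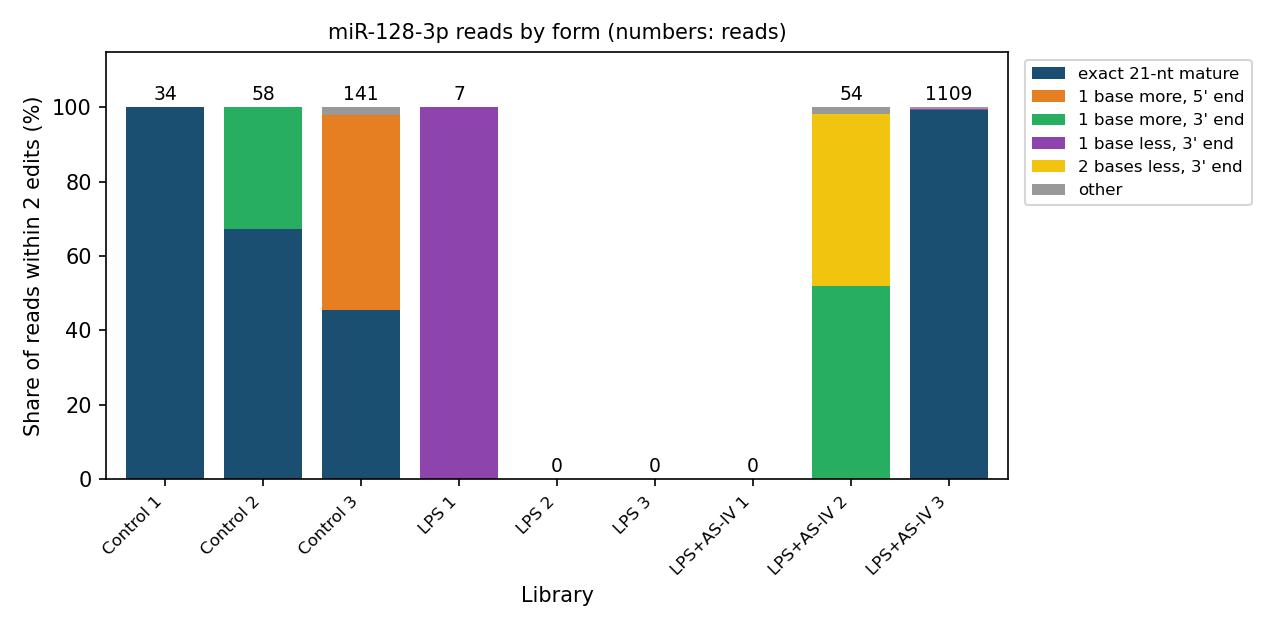
Forms of miR-128-3p in each library, as a share of all reads within 2 edits of the mature sequence (bars from 0 to 100%), with those reads as numbers above. The exact form makes up 100% in Control 1 and 99.4% in LPS+AS-IV 3, the 5′-extended form 52.5% in Control 3, and LPS 1 and LPS+AS-IV 2 hold end variants without any exact read.

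The share of miR-128-3p reads that the table left out was 0% in Control 1, 32.8% in Control 2, 54.6% in Control 3 and 100% in LPS 1. It was 100% in LPS+AS-IV 2, against 0.631% in LPS+AS-IV 3. With mature and hairpin tags summed and scaled together, miR-128-3p stood at 409.7, 1014 and 1096 CPM in the Control libraries. The LPS libraries held 156, 0 and 0 CPM, and those with AS-IV 0, 212 and 1267 CPM. It was then present in 3, 1 and 2 libraries of these groups in turn. Control still lay above LPS in every library, and LPS+AS-IV overlapped both. With LPS 2 and 3 set at their floor and LPS 1 at its 7 reads, the Control mean was 11.9 times the LPS mean and the LPS+AS-IV mean 6.97 times. LPS 1 made up most of that LPS mean. Without it the remaining LPS libraries were at 0, and Control was at least 30.0-fold and LPS+AS-IV at least 17.6-fold higher than their floors. Other omissions lowered the ratios. Without LPS 2 the Control mean was 9.16 times the LPS mean and the LPS+AS-IV mean 5.38 times. Without LPS 3 they were 9.08 and 5.33 times. With 1 Control library left out, the Control ratio was between 10.1 and 14.9. The ratio of LPS+AS-IV to LPS was 1.5 without LPS+AS-IV 3 and 10.5 without LPS+AS-IV 1.

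miR-129-5p had no end variants. Its 10 distinct tags within 2 edits were 1 mature tag with 480 reads, 8 tags with a single substitution and 1 tag under an Rfam label, with 1 inserted base and 1 read. The substitution tags had 14 reads in all and at most 4 each, for example T13C with 4 reads and C8T with 3 reads, both in LPS+AS-IV 3, where positions are counted from the 5′ end of the mature sequence. Substitution tags of miR-128-3p had 7 reads in all and at most 2 each, beside 1239 reads of its exact tag. None of the 5 libraries at 0 for miR-129-5p gained a hairpin read, against 2 of the 5 for miR-128-3p. Over the whole table, 26.4% of the 871 combinations of miRNA and library at 0 had hairpin reads of that miRNA.

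The counts were present or absent, with little between. Where miR-128-3p and miR-129-5p had table reads, they had at least 34. Of the 201 miRNAs, 40 were like this, with 0 or at least 10 reads in every library and 0 in at least 1, and 112 were read in at most 4 of the 9 libraries.

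In each library the distinct tags with at least 10 reads, over all RNA classes, were most often found near 1 count. This mode, taken in 4 bins per doubling, was 35 reads in Control 1 and 2 and 70 in Control 3. It was 59, 70 and 140 reads in the LPS libraries, and 99, 49 and 664 reads in the libraries with AS-IV. Bins on this scale widen with the count. The exact miR-128-3p tag lay close to it in Control, at 34, 39 and 64 reads. In LPS+AS-IV 3 the 1102 reads of the same tag were 1.66 times the mode. The largest miR-129-5p tag was 1 times the mode in Control 2, 0.888 in LPS 2, 0.487 in LPS 3 and 0.474 in LPS+AS-IV 3. Where present, the exact tags of both miRNAs thus held between 0.474 and 1.66 times the reads at the mode. The part of this mode in the presence or absence of either miRNA was not tested.

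**Figure D3:**
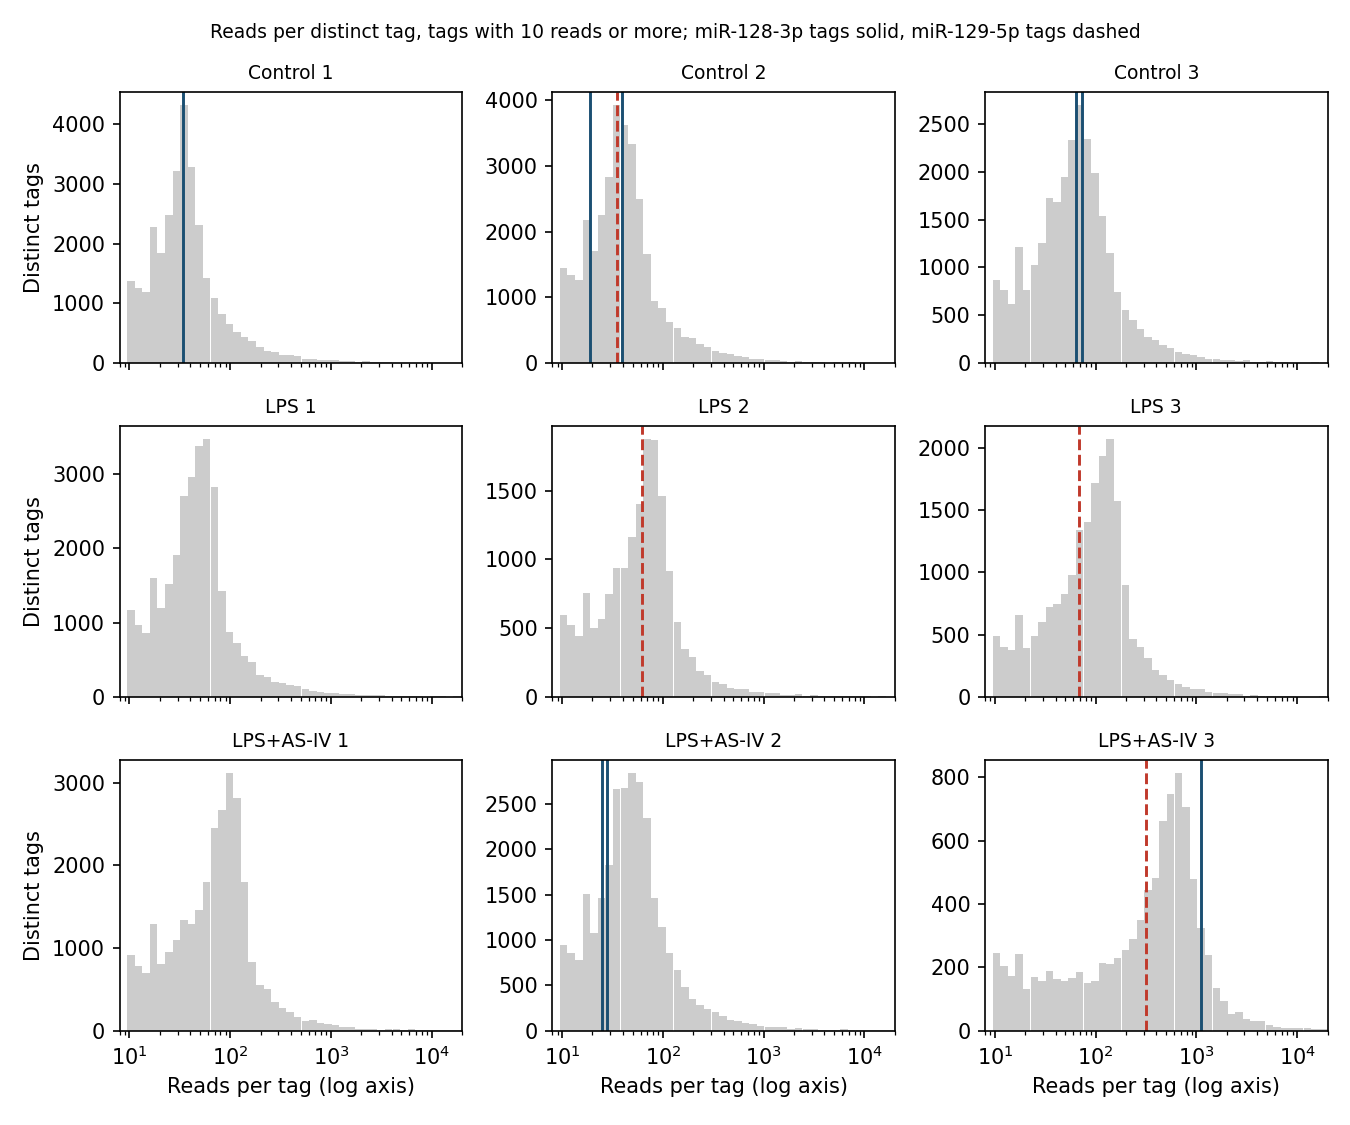
Number of distinct tags (vertical axis) by reads per tag (horizontal log axis) for tags with at least 10 reads, 1 panel per library. Solid lines mark miR-128-3p tags and dashed lines miR-129-5p tags with at least 10 reads. In Control 1 the line at 34 reads lies beside a mode of 35, whereas in LPS+AS-IV 3 the lines at 315 and 1102 reads lie on either side of a mode of 664.

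The table has a further column per library, headed exp, with whole numbers never above the reads. For miR-128-3p it was 30, 39 and 60 in Control and 719 in LPS+AS-IV 3, which is 88.2%, 100%, 93.8% and 65.2% of its reads. For miR-129-5p it was 34 in Control 2, 57 in LPS 2, 54 in LPS 3 and 233 in LPS+AS-IV 3. Over the whole table it was 53.7% of the reads in LPS+AS-IV 3 and between 84.8% and 94.0% elsewhere. The zeros of both miRNAs were zeros in this column too.

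Other neural miRNAs were sparse in the table as well. Of 47 listed, 10 were in the table, 6 more had hairpin tags only and 31 had neither. By table reads, 7 of the 10 were in 1 to 3 libraries and 3 in at least 5. Such sparse reads were common in the whole table, where 32, 45 and 16 of the 201 miRNAs were in 1, 2 and 3 libraries. With hairpin tags added, miR-326-3p was present in 8 libraries and miR-323-3p in 6, while miR-219a-2-3p and miR-218a-5p stayed at 2. For miR-326-3p this gave 884 reads in LPS+AS-IV 3, where its table count was 0. miR-124-3p, among the most abundant miRNAs of neurons, had no table reads, and hairpin tags gave it 37 reads in Control 2 and 54 in LPS 3. miR-9a-5p, an miRNA of neural progenitors, had 12 table reads in Control 1 and 1 each in LPS 3 and LPS+AS-IV 2. With hairpin tags miR-9a-5p was present in 7 libraries, with 586 reads in LPS+AS-IV 3.

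miR-7a-5p, found in neurons and endocrine cells, was the most widespread. Its Control libraries held 70, 70 and 65 table reads, its LPS libraries 21, 0 and 62, and those with AS-IV 13, 67 and 1. Hairpin tags brought these counts to 204, 173 and 257, then 85, 80 and 445, then 112, 123 and 2. So miR-7a-5p was then present in 9 of 9 libraries, and its table count of 0 did not mean absence of its tags. In LPS+AS-IV 3, where miR-128-3p and miR-129-5p had 1102 and 315 reads, miR-7a-5p had 1 table read. miR-323-3p, from the imprinted Dlk1-Dio3 cluster, ran the other way, with 1284 reads in LPS+AS-IV 3, 63 in Control 3, 41 in LPS 2, a single read in the other 2 libraries with AS-IV and none elsewhere. miR-138-5p, which acts at dendritic spines, had 83 table reads in LPS+AS-IV 1 and 1 in Control 3. With hairpin tags miR-138-5p had 804 reads in LPS+AS-IV 3, where its table count was 0, and 84 in LPS+AS-IV 1. Which libraries held table reads thus differed from 1 neural miRNA to the next. Summed over the other neural miRNAs of the list, the level in the table was 11107 CPM in LPS+AS-IV 1, the library with fewest table reads, and between 899.5 and 2979 CPM in the other libraries. The sum in LPS+AS-IV 1 came largely from 83 reads of miR-138-5p and 32 of miR-219a-2-3p. miR-128-3p and miR-129-5p were both at 0 in LPS+AS-IV 1.

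**Figure D4:**
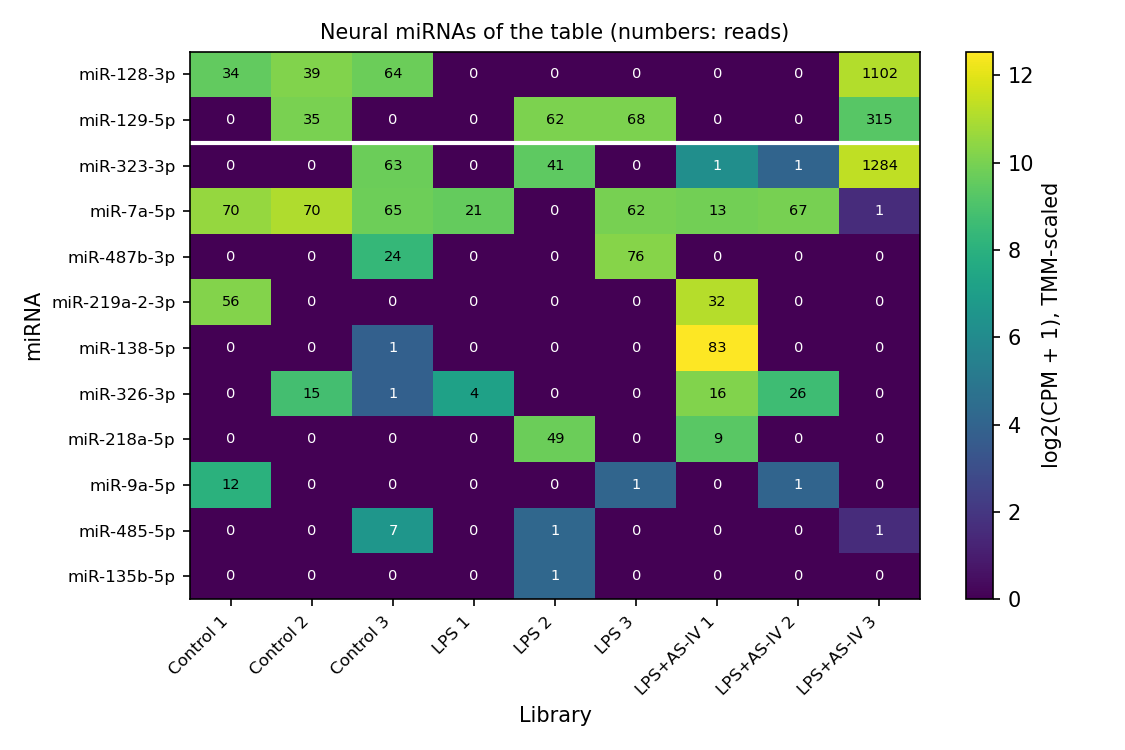
Table reads (numbers) and log2(CPM + 1) (colour, TMM-scaled) of miR-128-3p and miR-129-5p, above the white line, and of the 10 other neural miRNAs of the table, by library. Most cells are at 0, and miR-7a-5p, read in 8 of 9 libraries, is the fullest row.

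Only miR-7a-5p, miR-323-3p and miR-326-3p of the 10 had enough table reads for edgeR's quasi-likelihood test, given here on table reads. It called 0 of these 3 in LPS against Control, where 1.06% of the 94 tested miRNAs were called. For LPS+AS-IV it called 0 of 3 against LPS (0% of 94) and 0 of 3 against Control (2.13% of 94). The count of the 3 at an unadjusted p under 0.05 was 0 in each comparison, and DESeq2 called 0 of them. Fitted log2 fold changes in LPS against Control were -1.35 (SE 2.39) for miR-7a-5p, -0.27 (SE 2.97) for miR-323-3p and -1.73 (SE 3.12) for miR-326-3p. Each had an edgeR adjusted p of 0.964. These SE values were worked back from the fold change and the F statistic of the test. The median of the 3 fold changes was -1.35, the value of miR-7a-5p and smaller than its SE, beside -0.04 for all tested miRNAs. In LPS+AS-IV against LPS the median of the 3 was 1.91, beside 0.19 for all, and in LPS+AS-IV against Control it was 1.64, beside 0.21. The 3 comparisons share their groups, so these medians are not independent. They rest on table reads, and whether they hold with hairpin tags added was not tested. Hairpin tags raised miR-7a-5p as given above. For miR-326-3p they turned Control counts of 0, 15 and 1 into 68, 16 and 34. Its LPS counts of 4, 0 and 0 became 90, 0 and 15. Those of miR-323-3p hardly changed, from 63 to 64 for Control 3 and from 41 to 42 for LPS 2.

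Among the other tested miRNAs, the level across the 9 libraries most like that of miR-128-3p was that of miR-139-5p, with a Pearson r of 0.69 on log2(CPM + 1). Its reads were 44, 108 and 206 in the Control libraries, 38, 1 and 1 with LPS, and 0, 49 and 1516 with AS-IV before LPS. miR-451-5p (r = 0.60), miR-10a-5p (r = 0.59), miR-223-3p (r = 0.54) and miR-126a-3p (r = 0.54) followed. For miR-129-5p they were miR-181a-5p (r = 0.81), miR-3557-5p (r = 0.78), miR-16-5p (r = 0.76), miR-122b (r = 0.71) and miR-199a-3p (r = 0.58). These values are descriptions over 9 libraries that share their depth, and no neural miRNA of the list was among the 5 most alike of either.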

How the data were processed

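The deposited table held whole-number read counts of 201 mature miRNAs in 9 libraries, per the file headers, with no normalization by the authors that the headers record. The table's 6 columns of the authors' group means belong to no single library and were not used. The deposited exp column held whole-number counts of unstated making. The deposited single-library files held read counts per distinct tag of 15 to 45 nt with 1 label and a score, per the file headers. Table counts of both members equalled their mature tags. How tags came to be labelled is not stated. Of 2440 pairs of hairpin tag and miRNA with a RefSeq mature sequence, 72.4% were 1 edit from it and 36.1% differed in length, and 150 of 501 mature pairs were identical to it. The submitters' processing notes list Bowtie2 and Rnor_6.0 without saying what each was used for.

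Here, edgeR 4.0.16 (R 4.3.3) tested all libraries in 1 fit with group as the term. It used TMM factors, filterByExpr and Benjamini-Hochberg adjustment at 0.05, and covered 94 miRNAs. The same fit was run on simulated data with less spread than these, whose square root of the common dispersion was 1.42. That run says nothing about power in these data. DESeq2 1.42.0, other scalings, no filter, the exp column, other tag sets and leaving out each library were alternatives. Edits were counted with edlib. Members and lists were chosen with earlier results of these data known. Named miRNAs were the members, up to 8 neural miRNAs with most reads and the 5 most alike per member. Up to 3 per marker list with most reads were named too. miR-124-3p, miR-142-3p, miR-142-5p, miR-155-5p, miR-27a-3p and miR-27b-3p stand outside this rule and were chosen after their values were seen. So were the search within 2 edits, the classes of tag ends and the count of groups without overlap. The marker lists (myeloid, lymphocyte, erythroid, endothelial, liver and serum) had 0 members called by edgeR in each comparison. No 2 replicates were identical, and each pair gave a chi-square of at least 24.3 per degree of freedom. The p-values reflect variation among these libraries alone, possibly technical.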

Additional observations from a re-analysis of the deposited data

Results flagged for a closer look

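In LPS+AS-IV 2, where the table listed 0 reads of miR-128-3p, 25 reads came from a tag that is the mature sequence without its last 2 bases and that carried an Rfam family label, outside the table and outside the hairpin label. Rfam-labelled tags within 2 edits of miR-128-3p had 2 reads in Control 3 and 0 in Control 1 and Control 2.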

How the results depend on the processing

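Of 54 group means of the members under another setting, 52 stayed within 1 SD of the value given. The exceptions were miR-128-3p in LPS, 52.1 CPM rather than 0 with mature and hairpin tags summed, and 52.1 CPM with Rfam-labelled tags within 2 edits added, an alternative added after looking at the tags. Where a group has libraries at 0 beside libraries with reads, its SD is about as large as its mean or larger, so staying within it says little. Zeros in LPS+AS-IV 1 are limited by its depth of 15426 table reads, with a floor of 216 CPM. In LPS against Control, where edgeR called 1 miRNA (let-7a-5p), it called 2 with DESeq2 size factors, library totals, no filter or the exp column, DESeq2 called 3, and assigning every tag to 1 miRNA left 0. In LPS+AS-IV against LPS, 0 became 1 with DESeq2 size factors or no filter and 2 by DESeq2. In LPS+AS-IV against Control, 2 became 0 with each tag given to 1 miRNA. The DESeq2 calls in the first 2 comparisons included miR-128-3p. Its counts had chosen it, so these calls are no test of it. No edgeR setting called either member, and nothing is drawn from that either. Leaving out 1 library gave 1 to 3 calls in LPS against Control (3 without Control 1 or LPS 1, 2 without Control 3), 0 to 1 in LPS+AS-IV against LPS (1 without LPS 1 or LPS+AS-IV 2) and 2 to 3 in LPS+AS-IV against Control. The cause was not tested. With the replicate number as a block, the counts were 2, 1 and 2. The labels do not say whether these numbers pair the libraries. Deviations from the group means were correlated above 0.1 in 2 of 9 same-numbered pairs, and 3 of 9 libraries correlated best with their own number. Weak correlations over counts with many zeros cannot tell whether the libraries were paired.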
